A study of Homo sapiens with 2 samples.

Results

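The 6 Iroquois homeobox genes of the human genome, IRX1 to IRX6, were examined for H3K27me3 in HCT116, an established human colorectal carcinoma cell line. Their positions on hg19 were taken as given. The 6 genes were set against the 2600564 autosomal bins of 1 kb that held a read in either library. IRX4, IRX2 and IRX1 follow each other in a cluster on chromosome 5, and IRX3, IRX5 and IRX6 in a cluster on chromosome 16. The study holds 1 group of 2 ChIP-seq libraries, called biological replicates in the labels, from cells grown in McCoy's 5A medium with serum, for which the labels give no treatment, and immunoprecipitated with an antibody to H3K27me3. There was no other condition, no input library and no second antibody, so no test between groups was possible and the comparisons below are between places in the genome.

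IRX proteins are transcription factors with a homeodomain of the TALE class, which carries extra residues between its helices. They pattern the embryo, among other places in the heart, limb, neural tube and retina, and neighbours within a cluster share long-range regulatory elements scattered through the gene-poor DNA around them. H3K27me3 is the trimethylation of lysine 27 on histone H3 by Polycomb repressive complex 2. It marks silent developmental regulators, and in embryonic stem cells it typically covers CpG-rich promoters of homeobox genes.

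The level of a region is its mean read count per 1 kb bin, unlisted bins taken as 0, divided by the mean over the listed autosomal bins of that library, 22.0 reads for replicate 1 and 37.5 for replicate 2, out of 53187504 and 97031399 reads in all. Counting error at 2-fold, with reads taken as independent, was 15.1% of the level in a 1 kb bin of replicate 1 and 11.5% in replicate 2. Enriched bins are those that reached 2-fold and an adjusted p under 0.05 in each library, by a one-sided Poisson test of every autosomal bin with a read against the autosomal mean, with Benjamini-Hochberg adjustment over all of them. Of all these bins 12.7% were enriched. Among listed 1 kb bins with 1 to 10 reads 67.8% and 67.7% held an even number, so reads were not independent counts. The Poisson test and the Poisson intervals below take each read as independent. The intervals may therefore be too narrow even for counting error, and they cover no other variation. No correction for copy number or mappability was made. The listed bins of chromosome 5 averaged 0.876 and 0.872 in the libraries and those of chromosome 16 averaged 1.25 and 1.25.

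Promoters are shown for the chromosome 5 genes alone, as none was listed for the other 3 genes. The RefSeq promoter table, on GRCh38.p14, matched 3 of the 6 genes, and the 250 bases before a start are printed 5′ to 3′ on the gene's strand with each CG in capitals. They lie at chr5:1887180-1887429 on the minus strand for IRX4 (the outermost of its 3 listed starts), at chr5:2751678-2751927 on the minus strand for IRX2 and at chr5:3595582-3595831 on the plus strand for IRX1. These positions are on another build than the read counts and were not converted.
IRX4: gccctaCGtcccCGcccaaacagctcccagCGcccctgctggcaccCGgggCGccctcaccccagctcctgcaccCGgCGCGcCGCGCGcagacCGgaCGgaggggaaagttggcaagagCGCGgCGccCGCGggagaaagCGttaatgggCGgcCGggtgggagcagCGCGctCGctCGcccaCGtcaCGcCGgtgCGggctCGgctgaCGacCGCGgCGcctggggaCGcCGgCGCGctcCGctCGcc
IRX2: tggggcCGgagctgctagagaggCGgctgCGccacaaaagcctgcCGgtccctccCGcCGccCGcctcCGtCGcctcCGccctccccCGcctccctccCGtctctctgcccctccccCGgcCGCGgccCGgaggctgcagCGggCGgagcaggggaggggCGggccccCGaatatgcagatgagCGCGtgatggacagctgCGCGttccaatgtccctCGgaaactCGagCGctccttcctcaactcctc
IRX1: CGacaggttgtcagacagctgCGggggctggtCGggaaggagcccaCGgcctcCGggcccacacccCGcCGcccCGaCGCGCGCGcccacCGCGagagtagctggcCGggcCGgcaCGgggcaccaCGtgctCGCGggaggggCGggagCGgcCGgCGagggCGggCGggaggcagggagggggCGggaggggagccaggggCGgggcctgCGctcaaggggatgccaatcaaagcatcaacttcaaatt
The motif CG, which reads the same on both strands, occurred 40 times in the IRX4 sequence, 27 times in that of IRX2 and 29 times in that of IRX1. The median over 35116 promoters of the table was 11, and 93.9% of them held at least 1. Counts as high as those were found in 2.16% of promoters for IRX4, in 17.7% for IRX2 and in 14.1% for IRX1. The share of G and C was 77.6% for IRX4, 72.8% for IRX2 and 75.2% for IRX1. The other listed starts of IRX4 had 30 and 39 occurrences, with a share of G and C of 64% and 79.2%.

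No 1 kb bin of the 6 gene spans was enriched in both libraries, 0 of 33 by the Poisson test at 2-fold. For IRX6 this depended on the bin and the library: with 5 kb bins and a gap of 1 an enriched run of 400 kb touched its span, and in replicate 1 alone one of 43 kb did. The span with the highest level was that of IRX6, and the other 5 stood at or below 0.413 in each library. The median over the 6 spans was 0.172 in replicate 1 and 0.144 in replicate 2, against a median of 0.288 and 0.306 over all autosomal stretches of 6 kb. Those stretches include any without reads, as no minimum share of listed bins was set. An absence of enriched bins is common at this length. Among autosomal stretches with at least 80% of bins listed, 81% at 4 kb, 79.6% at 6 kb and 78.6% at 7 kb had none. That count alone thus does not set the genes apart. Without the fold minimum the adjusted Poisson test called 2 bins of IRX6 and 0 in the other spans, and at an unadjusted p under 0.05 in both libraries there were 4 bins in IRX6 and 0 elsewhere.

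On chromosome 5 the spans held few reads, and that of IRX1 was nearly empty. IRX1, known for its expression in the developing lung and limb, lies at chr5:3596001-3602000. Its span held 4 reads in replicate 1 and 4 reads in replicate 2, a level of 0.0303 (exact Poisson 95% interval 0.00826 to 0.0776) and 0.0178 (0.00484 to 0.0455). Only 1 of its 6 bins was listed in replicate 1 and 2 in replicate 2. A bin with 0 reads allows a level of up to 0.136 in replicate 1 and 0.0799 in replicate 2, taking 3 reads as the limit. IRX2, which takes part in hindbrain patterning in chick, lies at chr5:2746001-2752000 and held 9 and 31 reads, a level of 0.0682 (0.0312 to 0.129) and 0.138 (0.0935 to 0.195). Of its 31 reads in replicate 2, 21 fell in the lowest bin, farthest from the promoter, and 0 fell in the bin at the opposite end in either library. IRX4, known for its expression in the cardiac ventricle, lies at chr5:1877001-1883000 and held 20 and 34 reads, a level of 0.151 (0.0925 to 0.234) and 0.151 (0.105 to 0.211). Both libraries had few reads in each bin of the IRX4 span, with the highest in the lowest bin at 0.364 and 0.480. The promoters printed above are rich in G and C, but they were not placed on hg19 and need not lie within the spans counted. The base composition of the bins was not examined, and its part in the low counts was not tested.

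On chromosome 16 the spans differed more. IRX3, which acts with IRX5 in limb and heart development and is contacted by the region of obesity-associated variants within the neighbouring FTO, lies at chr16:54317001-54321000. It held 17 reads in each library, a level of 0.193 (0.113 to 0.309) in replicate 1 and 0.113 (0.0660 to 0.181) in replicate 2. IRX5, known for its role in the cardiac repolarisation gradient, lies at chr16:54965001-54969000 and held 26 and 62 reads, a level of 0.295 (0.193 to 0.433) and 0.413 (0.317 to 0.529). Within IRX5 the counts were uneven: its lowest bin had 0 and 8 reads and its highest had 20 and 23. IRX6, studied in mouse for its role in retinal bipolar cells, lies at chr16:55358001-55365000 and held 234 and 339 reads, a level of 1.52 (1.33 to 1.73) and 1.29 (1.16 to 1.44). IRX6 was the one span above the autosomal mean, at percentile 83.2 and 79.6 among autosomal stretches of its length. Along IRX6 the lowest bin was at 0.318 and 0.426 and the uppermost at 2.50 and 1.63. The top 2 bins of IRX6 thus passed 2-fold in replicate 1 alone.

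In order of the mean of both libraries, the gene spans ran from IRX6 at 1.40 ± 0.162 through IRX5 at 0.354 ± 0.0831, IRX3 at 0.153 ± 0.0565, IRX4 at 0.151 ± 0.000374 and IRX2 at 0.103 ± 0.0491 down to IRX1 at 0.0240 ± 0.00887 (each SD, n = 2). IRX6 was above IRX5 in both libraries by more than the intervals, and IRX2 was above IRX1 in both, with overlapping intervals in replicate 1. IRX3 and IRX4 did not differ beyond their spread, since the values of IRX3 lay on either side of those of IRX4. IRX4 stood above IRX2 in both libraries, with overlapping intervals in each. IRX5 stood above IRX3 in both libraries, with overlapping intervals in replicate 1.

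Each gene span had a lower level of reads than its own flanks in both libraries. Whether this reflects less of the mark was not tested, as there was no input library. The span of IRX3 stood at 0.193 in replicate 1 and 0.113 in replicate 2, against 1.79 and 2.02 in its flanks of 50 kb on each side, a ratio of 0.0820 ± 0.0368 (SD, n = 2). IRX5 stood at 0.295 and 0.413 against 1.45 and 1.63 in its flanks, a ratio of 0.229 ± 0.0350 (SD, n = 2). IRX6 stood at 1.52 and 1.29 against 3.69 and 3.99, a ratio of 0.367 ± 0.0625 (SD, n = 2). These 3 genes thus lay in local minima of marked surroundings. IRX4 stood at 0.151 and 0.151 against 0.862 and 0.827, a ratio of 0.179 ± 0.00477 (SD, n = 2). IRX1 stood at 0.0303 and 0.0178 against 0.189 and 0.199, a ratio of 0.125 ± 0.0506 (SD, n = 2), and here the flanks too were below the autosomal median. IRX2 stood at 0.0682 and 0.138 against 0.234 and 0.248, a ratio of 0.424 ± 0.187 (SD, n = 2), and its ratio of 0.556 in replicate 2 was above 0.5.

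A span at or below 0.5 of its flanks in both libraries was found at 5 of the 6 genes. Among autosomal stretches with at least 80% of flank bins listed, the same was found for 13.7% at a length of 4 kb, 12.5% at 6 kb and 12.1% at 7 kb. With flanks at 1-fold or more in both libraries, as at IRX3, IRX5 and IRX6, the shares were 15.2% at 4 kb, 13.9% at 6 kb and 13.4% at 7 kb, and all 3 genes met the limit. The limit was set after the values had been seen, and other genes were not examined, so nothing here tells IRX genes from other genes. In replicate 1 the ratios ranked at percentile 2.93 for IRX4, 6.79 for IRX2, 2.52 for IRX1, 1.85 for IRX3, 4.84 for IRX5 and 11.7 for IRX6 among these stretches. In replicate 2 they ranked at 2.72 for IRX4, 20.1 for IRX2, 0.705 for IRX1, 0.470 for IRX3, 5.81 for IRX5 and 6.91 for IRX6. With unlisted bins left out, the ratio was 0.551 at IRX1 and 0.773 at IRX2, so there the low ratio rested largely on bins without reads.

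**Figure D1:**
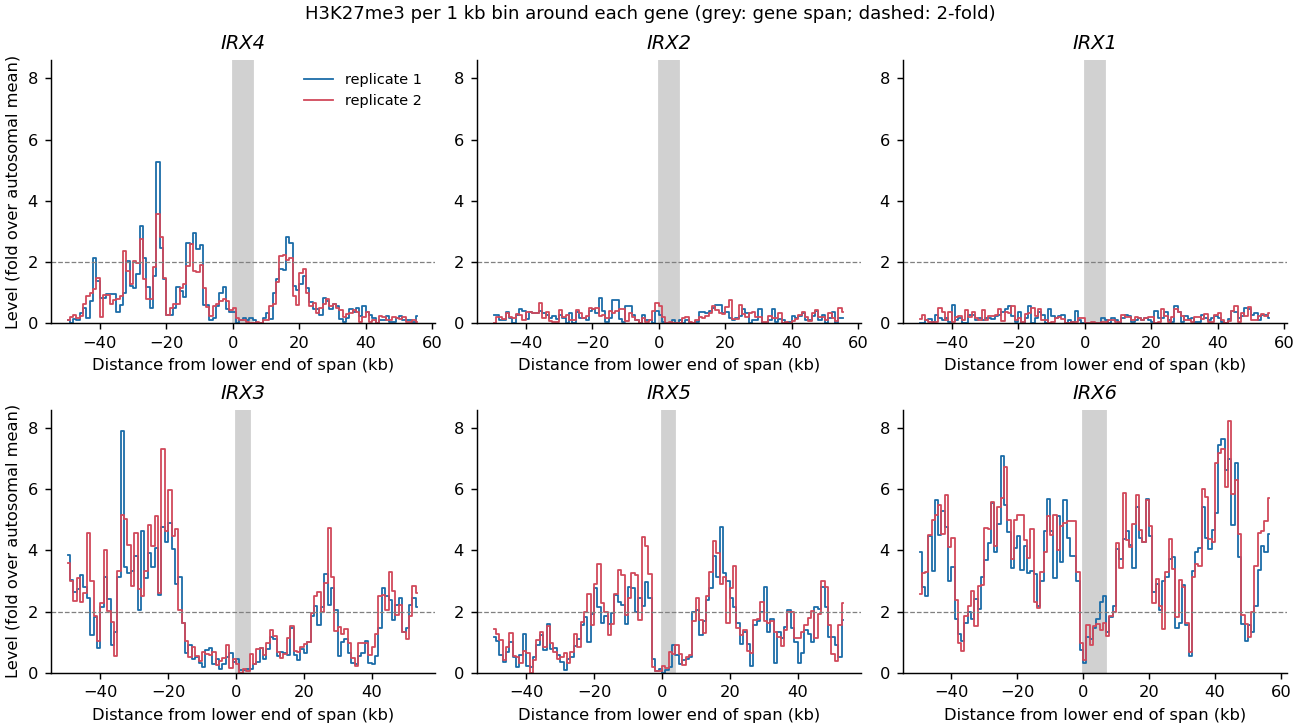
H3K27me3 level per 1 kb bin (fold over the mean of listed autosomal bins, vertical axis) against distance from the lower end of the gene span in kb, for 6 genes, replicate 1 in blue and replicate 2 in red, with the span in grey and the 2-fold minimum dashed. IRX3, IRX5 and IRX6 lie in gaps between marked stretches, IRX4 lies between narrow peaks, and at IRX2 and IRX1 no bin came near 2-fold.

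The shape of the minimum differed between the genes. Around IRX6, the stretch without an enriched bin was the narrowest, 11 kb from 55357001 to 55368000, and reached 1 kb below the span and 3 kb above it. The level was 2.89 in replicate 1 and 3.18 in replicate 2 at 1 to 5 kb from the IRX6 span, and 4.41 and 4.84 at 6 to 10 kb. Around IRX5 the stretch covered 13 kb from 54962001 to 54975000. The level there was 0.827 and 1.05 at 1 to 5 kb, 2.15 and 2.47 at 6 to 10 kb, and 2.43 and 2.63 at 11 to 20 kb, before it was lower again at 21 to 50 kb with 1.11 and 1.25. IRX5 was thus edged by a band of mark on either side, one run of 11 kb ending 3 kb below its span and one of 12 kb starting 6 kb above it.

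Around IRX3 the minimum was wide, 39 kb from 54301001 to 54340000, with 16 kb below the span and 19 kb above it. The level was 0.395 and 0.543 at 1 to 5 kb from IRX3, 0.673 and 0.749 at 6 to 10 kb, 1.48 and 1.70 at 11 to 20 kb and 2.31 and 2.59 at 21 to 50 kb. The mark around IRX3 was uneven, with a mean of 2.44 ± 0.162 (SD, n = 2) in the lower flank, on the side of FTO, and a mean of 1.38 ± 0.171 (SD, n = 2) in the upper flank. In the lower flank 29 of 50 bins were enriched, and in the upper flank 10 of 50. At 7.91 and 5.17, the bin from 54283001 to 54284000 was the highest of the IRX3 window by the mean of both libraries, though replicate 2 alone had a higher one at 7.30.

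IRX4 had narrow peaks on both sides. Its stretch without an enriched bin covered 28 kb from 1865001 to 1893000, and 6 of the 106 bins of its window were enriched, 4 in the lower flank and 2 in the upper. The level was 0.414 and 0.354 at 1 to 5 kb from IRX4, 1.01 and 1.13 at 6 to 10 kb and 1.40 and 1.19 at 11 to 20 kb. The bin from 1854001 to 1855000 was the highest there, at 5.27 and 3.57. The longest run of enriched bins inside the IRX4 window was 2 kb, against 24 kb at IRX3, 12 kb at IRX5 and 38 kb at IRX6. A run of 76 kb also starts in the IRX6 window, but most of it lies beyond the window's end.

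IRX2 and IRX1 lay together in a single stretch without any enriched bin, 2.952 Mb from 2295001 to 5247000. Of the 106 bins in each of their windows 0 were enriched by the Poisson test, also without a fold minimum and at an unadjusted p under 0.05 in both libraries. The whole window stood at 0.225 and 0.241 at IRX2 and at 0.180 and 0.189 at IRX1, at percentile 33.6 and 33.5 and at percentile 24.9 and 23.9 among autosomal windows of that length. Windows without an enriched bin were common, at 54.5% of autosomal windows of 104 kb, 54.2% of those of 106 kb and 54.1% of those of 107 kb, with at least 80% of bins listed, and 2 of the 6 genes had such a window. Of 61255 autosomal stretches between enriched bins, 118 were at least as long as that of IRX2 and IRX1, 100 of them with that share listed. That counts stretches whatever their length, and a gene falls in a long stretch more often than the count shows. The share of autosomal bins within stretches of that length was not computed. By the mean of both libraries, the highest bin of the IRX1 window was at 0.545 and 0.453.

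Pooled over the clusters, the gene windows were no richer in enriched bins than the gene-poor spans between them. In the 6 windows 146 of 633 bins were enriched, or 23.1%, and in the 4 spans 567 of 2340, or 24.2%. Of autosomal bins with a read 12.7% were enriched, while the windows and spans count every bin. The windows differed widely: 74.8% of bins were enriched at IRX6, 37.5% at IRX3, 20.2% at IRX5, 5.66% at IRX4 and 0 at IRX2 and IRX1. The window of IRX6 held 80 of the 146 enriched bins, and the other 5 windows together held 66 of 526, or 12.5%.

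On chromosome 5 the gene windows averaged 0.409 in replicate 1 and 0.406 in replicate 2, against 0.834 and 0.866 in the spans between them, a ratio of 0.480 ± 0.0149 (SD, n = 2). The windows were lower in 2 of 2 libraries, by more than the spread between them, but the exact sign-flip permutation test over libraries gave a two-sided p of 0.5, the smallest that 2 libraries allow. In the windows 6 of 318 bins were enriched, or 1.89%, and in the spans 186 of 1507, or 12.3%, against 10.7% of the bins of chromosome 5 with a read. All of the enriched bins of the spans lay between IRX4 and IRX2, a span of 763 kb at 1.48 and 1.53, and 0 of 744 lay between IRX2 and IRX1, a span at 0.174 and 0.184. The median over bins gave a window to span ratio of 0.867, since most of the difference rests on 1 block. That block held a run of 110 kb from 2020001 to 2130000 at 4.41 ± 0.141 (SD, n = 2), which starts 137 kb above IRX4. Runs of 13 kb, 28 kb and 37 kb followed it up to 2219000, at 3.56 ± 0.00983, 3.45 ± 0.109 and 3.96 ± 0.193 (each SD, n = 2). By the mean of both libraries, the highest bin of the span between IRX4 and IRX2 was that from 2058001 to 2059000, at 9.04 and 8.02. The GRCh38 gene table lists 1 protein-coding entry between IRX4 and IRX2, the uncharacterised LOC124901165, along with 7 long noncoding RNA genes, and none of these was placed on hg19 here. Beyond IRX1 the next 500 kb stood at 0.147 and 0.166 with 0 bins enriched, and beyond IRX4 the 500 kb on the other side stood at 1.27 and 1.26 with 103 bins enriched.

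On chromosome 16 the gene windows averaged 2.24 in replicate 1 and 2.46 in replicate 2, against 2.26 and 2.39 in the spans, a ratio of 1.01 ± 0.0287 (SD, n = 2). The sign of the difference changed between the libraries, so it was not beyond their spread. In the windows 140 of 315 bins were enriched, or 44.4%, and in the spans 381 of 833, or 45.7%, against 17.9% of the bins of chromosome 16 with a read. Between the genes of this cluster the order held in both libraries: the IRX6 window was the highest at 3.55 and 3.81, the IRX3 window stood at 1.73 and 1.95, and the IRX5 window at 1.40 and 1.58. The IRX5 window was below both of its neighbouring spans, which stood at 2.04 and 2.15 toward IRX3 and at 2.68 and 2.83 toward IRX6. Of the bins in the window of IRX5 20.2% were enriched, against 38.4% of the 544 bins toward IRX3 and 59.5% of the 289 bins toward IRX6. The GRCh38 gene table lists no protein-coding gene between IRX3 and IRX5 or between IRX5 and IRX6. CRNDE, a long noncoding RNA gene named for its raised expression in colorectal neoplasia, is the neighbour of IRX5 on the side of IRX3.

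**Figure D2:**
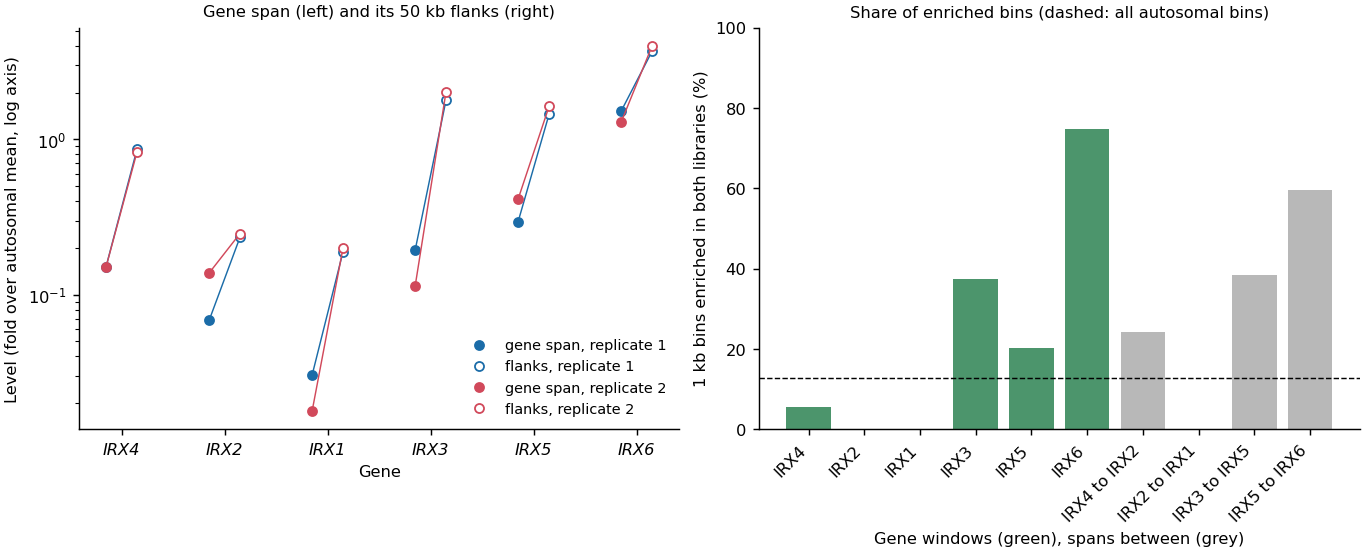
Left, level (fold over the mean of listed autosomal bins, log axis) of each gene span (filled) and of its 50 kb flanks (open) in replicate 1 (blue) and replicate 2 (red): in each of the 6 genes and both libraries the span was below its flanks. Right, percent of 1 kb bins enriched in both libraries in the 6 gene windows (green) and the 4 spans between them (grey), with the 12.7% of autosomal bins with a read dashed: IRX6 had 74.8% and IRX2 and IRX1 had 0.

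With 1 kb bins joined over gaps of at most 2, the runs of mark in the chromosome 16 cluster were many and short. Their number and length depend on the bin, as with 5 kb bins and a gap of 1 a run of 400 kb touched the IRX6 span. Between IRX3 and IRX5 the longest enriched runs were 36 kb from 54763001 to 54799000 at 3.23 ± 0.0917 and 35 kb from 54489001 to 54524000 at 3.47 ± 0.0162 (each SD, n = 2). Between IRX5 and IRX6 one of 36 kb from 55127001 to 55163000 stood at 2.99 ± 0.0536 and one of 30 kb from 55261001 to 55291000 at 2.96 ± 0.0245 (each SD, n = 2). At IRX6 itself a run of 31 kb from 55326001 to 55357000 ended 1 kb below the span at 4.27 ± 0.257, and one of 38 kb from 55368001 to 55406000 started 3 kb above it at 4.24 ± 0.144 (each SD, n = 2). The run of 76 kb that began 45 kb above IRX6, from 55410001 to 55486000, was the longest in reach of any of the 6 windows, at 4.89 ± 0.221 (SD, n = 2). The runs that edge IRX5 stood lower than those at IRX6, at 2.72 ± 0.458 below its span and 2.76 ± 0.0462 above it (each SD, n = 2).

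The mark began and ended at places that did not coincide with the outer genes. In steps of 50 kb, the level below IRX3 was 0.178 and 0.172 from 54050001 to 54100000, 0.293 and 0.364 in the next step, 1.80 and 1.91 from 54150001 to 54200000, and 2.65 and 2.82 in the step after it. The level thus passed the autosomal mean more than 100 kb below the IRX3 span. Above IRX6 the level was 4.59 and 4.91 from 55400001 to 55450000, 1.39 and 1.49 from 55500001 to 55550000 and 0.233 and 0.261 from 55550001 to 55600000. It was back at 3.66 and 4.06 from 55650001 to 55700000, past the cluster.

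**Figure D3:**
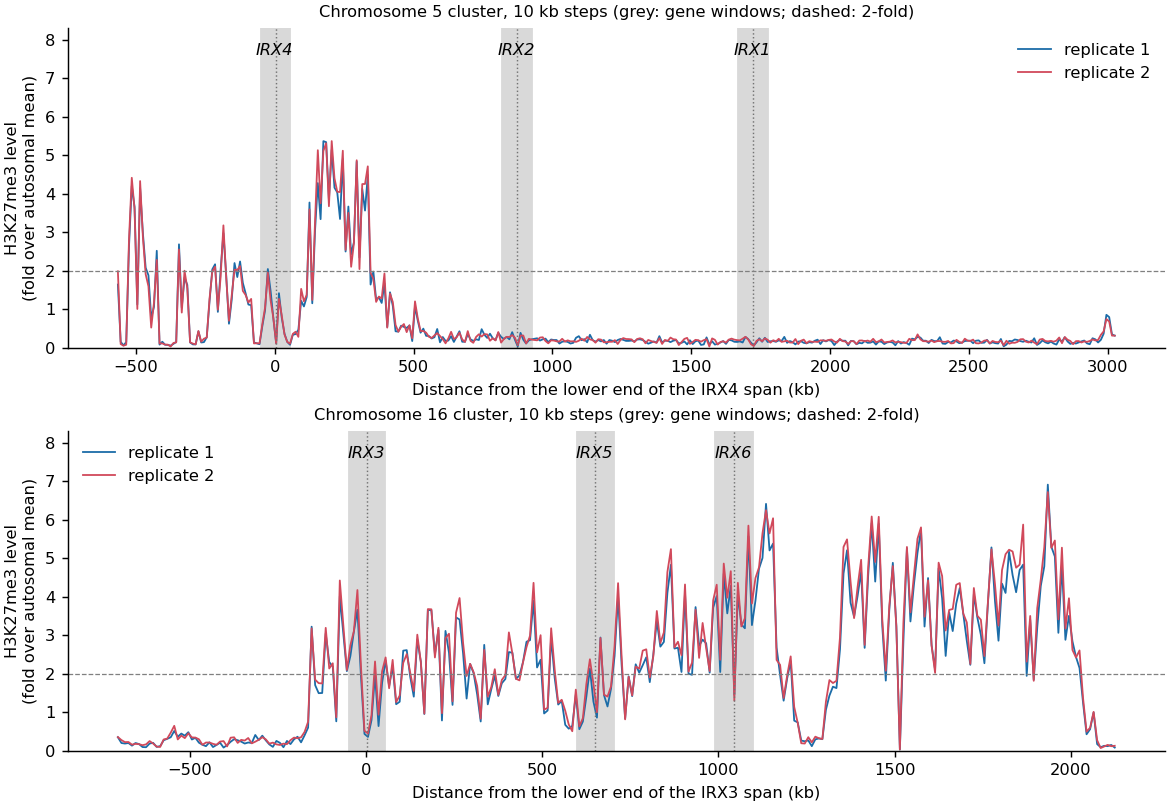
H3K27me3 level in steps of 10 kb (fold over the mean of listed autosomal bins) along both clusters, against distance from the lower end of the IRX4 span (top) and of the IRX3 span (bottom) in kb, replicate 1 in blue, replicate 2 in red, gene windows in grey. On chromosome 5 marked stretches lie below IRX4, one block of mark lies between IRX4 and IRX2, and the level stays low past IRX2 and IRX1. On chromosome 16 marked and poorly marked stretches alternate from below IRX3 to beyond IRX6, with low levels at both ends of the plotted range. The gene spans of that cluster sit in gaps.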

How the data were processed

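H3K27me3 was mapped by ChIP-seq in 2 libraries of HCT116 cells, 1 group. In the files the authors deposited, each line gives a raw read count for 1 bin of 1000 bases, and empty bins have no line. BWA 0.7.12 and the build hg19 are named in the submitters' processing notes. How reads were counted, and whether duplicates or poorly mapped reads were removed, is not given in the sources used here.

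Gene spans on hg19 were given in whole kb with the choice of the genes; each window adds 50 kb on both sides, and spans between are the stretches between neighbouring windows of a cluster. Levels, the Poisson test with Benjamini-Hochberg adjustment and the 2-fold minimum are as defined above; runs of enriched bins were joined over gaps of at most 2 bins. Percentiles are among all autosomal stretches of the same length at steps of 1 kb. Intervals are exact Poisson 95% intervals that take each read as independent. The members, regions and measures were chosen with earlier results of these data known. The ratio of span to flank, its limit of 0.5 and its alternatives were added once the levels were known. The 6 genes were named by rule, and other TALE homeobox genes were not examined, as positions on hg19 were not used here beyond those of the 6. Gene neighbours and promoter sequences come from RefSeq on GRCh38.p14. Whether the libraries came from separate cultures is not stated beyond the words biological replicate, so their spread may be technical. Computations used scipy 1.17.1, numpy 2.4.6 and pandas 2.3.3 under Python 3.11.15, and plots used matplotlib 3.10.9.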

Additional observations from a re-analysis of the deposited data

How the results depend on the processing

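Of 134 recomputed values, 111 were within 1.5 times (shares, ratios of span to flank, run lengths) or 1 SD of the replicates (levels, ratios of window to span), and 23 moved. Some of the 111 could not have moved, so their number does not measure robustness. With 2 libraries, a level or window to span ratio from either one always lies within 1 SD of their mean. A run length of 0 also stays 0 with a gap of 0 bins or a 3-fold minimum. The cause of the moves was not tested unless the setting itself gives it. At a 3-fold minimum the enriched share was 13.3% in the gene windows and 12.9% in the spans between, where 7.64% of autosomal bins with a read passed. Scaled to the median of listed bins it was 41.9% and 44.3%, where 26.7% of autosomal bins with a read passed. With each replicate left out it was 25.9% to 26.5% in the windows and 26.2% to 28.5% in the spans. Of autosomal bins with a read, 14% passed in replicate 1 alone and 15% in replicate 2 alone. The window to span ratio on chromosome 5 was 0.584 with flanks of 25 kb, 0.400 with 100 kb and 0.867 by medians, and on chromosome 16 it was 0.957 by medians, below 1. Scaled to the median, the span levels were 0.388 (IRX4), 0.268 (IRX2), 0.0608 (IRX1), 0.388 (IRX3), 0.915 (IRX5) and 3.59 (IRX6), a change of scale for all. Scaled to the own chromosome IRX4 stood at 0.173 and IRX6 at 1.12, and without the top 0.1% of bins IRX4 stood at 0.153. The span to flank ratio was 0.773 at IRX2 and 0.551 at IRX1 with unlisted bins left out, and 0.238 at IRX1 and 0.133 at IRX3 with spans widened by 2 kb. No enriched run touched a gene span, except at IRX6: there it was 400 kb with 5 kb bins and a gap of 1, and 0 to 43 kb with each replicate left out, the 43 kb in replicate 1 alone. The IRX1 span rests on 4 reads in each library and that of IRX2 on 9 and 31. No paired analysis between groups was possible because both libraries belong to 1 group; windows and spans were paired within each library, where 0.5 is the smallest exact p.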

Other observations

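Past the IRX6 end of the cluster and the gap beyond it, a further marked stretch followed. From 55663001 to 56334000, runs of enriched bins of up to 81 kb followed each other with short breaks. The highest of them, 45 kb from 55738001 to 55783000, stood at 5.37 ± 0.175, and the longest, from 55842001 to 55923000, at 4.64 ± 0.148 (each SD, n = 2). In the GRCh38 gene table the protein-coding neighbours beyond IRX6 are MMP2 and LPCAT2; they were not placed on hg19 here. The 500 kb beyond the IRX6 window stood at 3.06 and 3.25, at percentile 96.5 and 96.4 among autosomal stretches of that length, with 300 of 500 bins enriched.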
